A study of Rattus norvegicus with 16 samples.

Results

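Corticotropin-releasing hormone (CRH) was applied for 24 h to cultured rat pituitary cells that the labels describe as isolated corticotropes, and the arrays of these cells were set against those of control cells, gene by gene. The comparison rested on 8 of the 16 arrays of the study, namely the 4 arrays titled 24 h after CRH and the 4 titled control sample, and on the 14557 genes that have a probe set with a single gene symbol, 1 probe set per gene and the brightest where there were several. All groups shared their source, pituitaries of Wistar rats aged 21 days, and their medium, DMEM/F12 supplemented with fetal bovine serum at 10% and FGF at 0.05 µg/l. The cells were isolated on beads with an antibody that the growth protocol gives as anti-CRHR1 and the series' design text as anti-CRH. The other ligand groups, interleukin-6 (IL-6) and extracellular nicotinamide phosphoribosyltransferase (eNampt), each for 24 h and each on 4 arrays, entered the estimate of the spread and a second comparison. The control titles give no time, and no dose of CRH is given in the sources used here. Nothing in the labels tells whether replicate arrays stand for separate cultures or animals, so p-values here measure the spread between these arrays alone, which may be technical.

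CRH is the hypothalamic peptide that drives the pituitary arm of the stress axis. On corticotropes it binds the receptor CRHR1, which couples to the stimulatory G protein, adenylyl cyclase, cyclic AMP and protein kinase A. CREB and the NR4A nuclear receptors then act on Pomc, the gene of the precursor that the cell cleaves to ACTH and stores in granules. A secretory cell of this kind also depends on the endoplasmic reticulum, where prohormones are folded, and on the vesicle traffic that carries them onwards.

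The overall distribution of values set control arrays 3 and 4 apart. The 90th percentile of an array's log2 values was 5.10 to 5.41 on the 4 CRH arrays, against 4.58 and 4.43 on control arrays 3 and 4 and 5.37 and 5.51 on control arrays 1 and 2, while the medians of all 16 arrays lay between 1.82 and 2.02. Comparisons with control are therefore given with all 4 control arrays and, for most genes and lists though not all, again without control arrays 3 and 4. Among the cell type markers, the lactotrope hormone gene Prl was bright everywhere, at 10.8 to 11.1 (log2) after CRH and 10.5 to 10.9 in control where the highest value of the table was 11.5. The corticotrope factor Tbx19 lay at 1.50 to 1.61 after CRH and 1.48 to 1.83 in control, below the medians of the arrays. The arrays thus carried RNA of another pituitary hormone gene beside Pomc, and the levels of Pomc and Tbx19 do not settle the labelled cell type. Crhr1, Avpr1b, Crem, Chga and Pcsk1 were not analysed here.

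Most gene differences ran upwards after CRH, and none passed the test over all genes. With limma 0 of 14557 genes (0.0%) were called at adjusted p under 0.05, and the smallest adjusted p was 0.158, shared by 7 genes. An unadjusted p under 0.05 was reached by 810 genes in the higher direction (5.56% of those tested) and by 111 in the lower (0.763%). After a repeated quantile normalization the same counts were 557 and 222, and without control array 3 or 4 alone 496 and 464 genes were higher. A log2 difference above 1 was found upwards for 573 genes and downwards for 80, and 65.7% of all genes had a positive difference. In 298 genes (2.05%) the lowest CRH array exceeded the highest control array, and in 66 genes (0.453%) the reverse was found, against 216 and 118 genes after repeated quantile normalization. Any gene separated in this way has p = 0.0286 by the exact two-sided permutation test of 4 against 4 arrays. Whether these counts exceed those of arrays without a difference was not tested.

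The 298 higher genes without overlap had a median log2 difference of 0.84, with a range of 0.145 to 2.62, and 120 of them differed by more than 1. The gap between the lowest CRH array and the highest control array was small for most of them, with a median of 0.109, and exceeded 0.5 for 24 genes and 1 for 4 genes. These 4 were Lin7c, Hist1h4m, Nudt21 and Cox6b2, the last named after its values were seen. The 66 lower genes were closer to control, with a median difference of -0.40. Only 9 of them differed by more than 1, and the gap exceeded 0.5 for 3 genes, Prxl2a-ps1, Zfp697 and Hbe2.

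Without control arrays 3 and 4 the surplus of higher genes was gone. An unadjusted p under 0.05 was then reached by 258 genes upwards (1.77%) and 478 downwards (3.28%), and differences above 1 were more frequent downwards (592 genes) than upwards (384 genes). The share of genes with a positive difference was 53.0%, and the median difference of all genes was 0.02, against 0.10 with all control arrays. Against control arrays 1 and 2 alone, where non-overlap is easier to reach, 757 genes (5.2%) lay wholly above and 746 (5.12%) wholly below. limma then called 2 genes (0.0137%) at adjusted p = 0.0464, Use1 upwards and Rap2a downwards.

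The balance of higher and lower genes depended on how bright a gene's probe set was, as the plot by brightness shows. In the dimmest decile of genes the median log2 difference was 0.04 with all 4 control arrays and 0.06 without arrays 3 and 4. In the brightest decile it was 0.48 with all 4 and -0.06 without these arrays, and 88.7% of genes had a positive difference in the first case against 44.6% in the second. Genes wholly above control numbered 13 in the dimmest decile and 42 in the brightest, and genes wholly below numbered 7 and 0. How far the low upper range of control arrays 3 and 4 accounts for single bright genes was not tested.

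**Figure D1:**
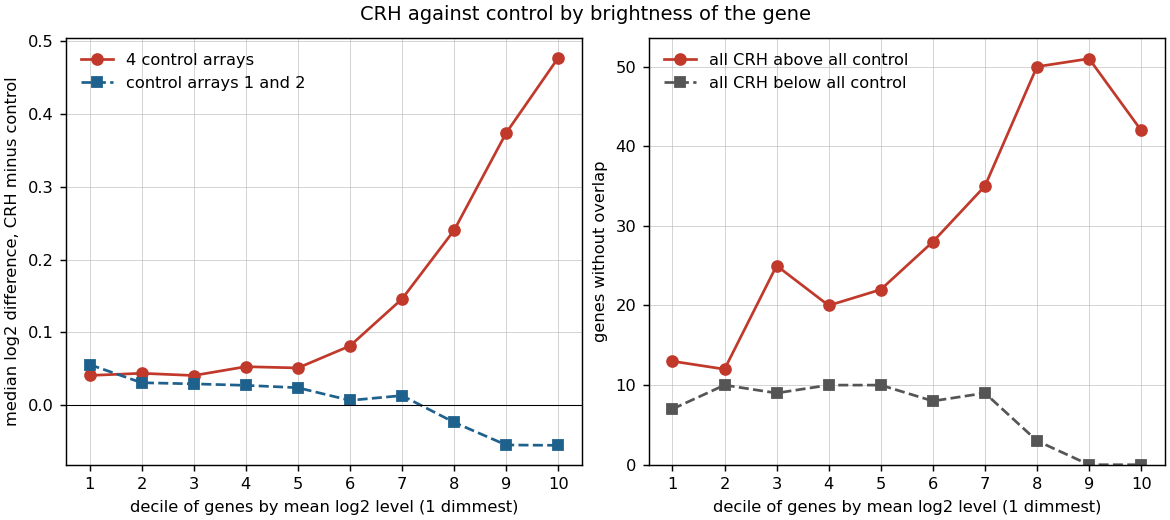
Median log2 difference of CRH minus control (left) and number of genes whose groups do not overlap (right), in deciles of the 14557 genes ordered by their mean log2 level, where 1 is the dimmest decile. Red circles on the left use all 4 control arrays and climb to 0.48 in the brightest decile, while blue squares use control arrays 1 and 2 and end at -0.06; on the right, red circles count genes higher after CRH and grey squares genes lower after CRH.

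Most of the genes without overlap kept their size without those 2 arrays. A difference was taken to hold where it kept its sign and at least 0.667 of its size without control arrays 3 and 4. Non-overlap fixes the sign, so only the size was open for these genes. The size was open in part only, since both differences share the 4 CRH arrays and control arrays 1 and 2. Of the 298 higher genes 265 held (88.9%) and of the 66 lower genes 51 held (77.3%), and 105 of the higher genes were further from control without the 2 arrays. The median of the 298 was 0.72 without them, against 0.84 with them, and 120 of the 298 had an unadjusted p under 0.05 without them, against 224 with them. In the brightest decile 29 of 42 higher genes held. Among the larger set of 810 genes that passed an unadjusted p of 0.05 upwards, chosen on the same arrays but with no demand on overlap, 565 held (69.8%) and 2 turned sign. Of the 111 lower ones 72 held (64.9%) and 4 turned sign.

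**Figure D2:**
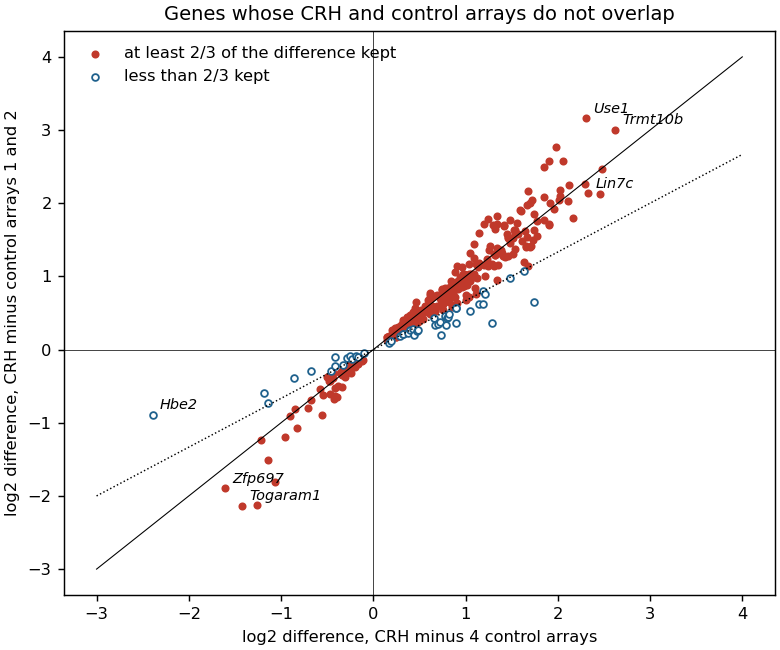
Each point is 1 of the 364 genes whose CRH and control arrays do not overlap, with its log2 difference against all 4 control arrays on the horizontal axis and against control arrays 1 and 2 on the vertical axis. The solid line marks equal differences and the dotted line 0.667 of the difference; the 316 filled red points kept at least that share and the open blue points, Hbe2 the lowest on the horizontal axis, did not.

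Pomc was higher on every CRH array than on any control array. Its log2 levels were 8.47, 8.21, 8.73 and 8.38 after CRH and 7.89, 7.59, 7.29 and 8.13 in control. Control array 4 came within 0.08 of the lowest CRH array. The difference was 0.72 ± 0.19 (SE, n = 4 each), a 1.65-fold higher level, and did not pass over all genes with limma (adjusted p = 0.479). The exact two-sided permutation test of this gene gave p = 0.0286, the smallest that 4 against 4 arrays can give. Without control arrays 3 and 4 the difference was 0.70, and after a repeated quantile normalization of all arrays it was 0.40, so the size of the Pomc difference moved more with the scaling than with those arrays. In RNA of a mixed cell sample, more Pomc RNA per cell and more corticotropes among the cells cannot be told apart.

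The early genes of the cAMP pathway were mostly higher by small amounts. Nr4a2, a cAMP-induced orphan receptor gene whose product acts on Pomc, had log2 levels of 5.97, 5.54, 6.04 and 5.48 after CRH, against 4.64, 5.65, 4.98 and 4.92 in control. Control array 2 lay among the CRH arrays, and the other control arrays lay below all of them. The difference was 0.71 (adjusted p = 0.661), and 0.61 without control arrays 3 and 4. Its relative Nr4a1 was widely spread, from 2.44 to 6.13 after CRH and from 3.46 to 4.84 in control, with CRH array 4 the lowest of all 8 arrays. Its difference was 0.79, with 1.58 without CRH array 4 and 0.35 at the lowest of the alternatives. Fos, the partner of Jun in the AP-1 factor, had a difference of 0.57 (0.63 without control arrays 3 and 4). Its CRH levels of 3.71 to 4.35 overlapped the control levels of 3.28 to 3.79. Per1, a clock gene, had a difference of 0.18 with all control arrays and of -0.41 without arrays 3 and 4. Creb1, the cAMP response factor itself, had a difference of 1.23 (adjusted p = 0.730), with control array 2 at 6.02 and the other control arrays at 3.68 to 4.51, against 5.33 to 6.44 after CRH. The Creb1 difference was 0.94 without control arrays 3 and 4. With the mean over its probe sets it was 0.085, the lowest of the alternatives, so it rested on the brightest probe set. Adcy5, an adenylyl cyclase gene, did not overlap between the groups, but its difference of 0.38 was 0.22 without control arrays 3 and 4.

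Of 24 measured CREB targets and immediate early genes, 22 were higher after CRH with a median log2 difference of 0.31, and 16 were higher without control arrays 3 and 4 with a median of 0.13. Of 23 genes of the CRH receptor and cAMP pathway, 14 were higher with a median of 0.22, and 13 with a median of 0.06 without those arrays. The median of all genes was 0.10 with and 0.02 without them, and 0 members of either list were called. The median levels of these lists, 3.91 and 3.04 (log2), fell in brightness deciles 8 and 7. Those deciles had median differences of 0.24 and 0.15, and of -0.02 and 0.01 without control arrays 3 and 4. Between CRH and the mean of IL-6 and eNampt the list medians were 0.01 and -0.05, against 0.03 for all genes. Fos differed from control by 0.57 with CRH, 0.62 with IL-6 and 0.90 with eNampt. In the same order Creb1 was at 1.23, 0.62 and 1.42 and Adcy5 at 0.38, 0.27 and 0.04. The glucocorticoid-responsive gene Fkbp5 lay at 2.26 to 2.50 after CRH and 2.23 to 2.78 in control, a difference of -0.12.

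The genes nearest to the threshold upwards were Mlx, Tspan13, Lin7c, Tex261 and Prdm4, all at adjusted p = 0.158 with limma. Mlx, the dimerization partner of the glucose-sensing factors Mlxip and Mlxipl, had log2 levels of 4.64, 4.96, 5.46 and 4.25 after CRH and 3.41, 2.54, 3.41 and 2.98 in control. The groups were 0.84 apart at their nearest, with no array of either group inside the other's range. The difference was 1.75 ± 0.30 (SE), or a 3.35-fold higher level, and 1.86 without control arrays 3 and 4. Of 11 measured Mlx partners and glucose-sensing targets, Mlx included, 9 were higher, but their median difference was 0.07. Txnip, a thioredoxin-binding protein gene and a known target of these factors, was at 4.60 to 5.77 after CRH and at 5.86, 1.33, 4.97 and 3.67 in control, with control array 2 far below the rest. Its difference was 1.39, and 0.51 without control array 2.

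Lin7c, a PDZ scaffold gene of polarised membranes and synapses, had the widest separation of these genes. Its log2 levels were 6.24, 6.88, 7.10 and 6.95 after CRH and 4.39, 4.91, 4.90 and 3.64 in control. The lowest CRH array was 1.33 above the highest control array, and the difference was 2.33 (5.03-fold; 2.14 without control arrays 3 and 4). Tspan13, a tetraspanin gene, was at 6.69, 7.33, 6.62 and 7.16 after CRH and at 5.21, 5.89, 5.05 and 5.02 in control. Its difference of 1.66 was 1.40 without control arrays 3 and 4, which were its lowest controls. Prdm4, a zinc finger gene of the PR-domain family, was at 6.18 to 6.60 after CRH and 4.42 to 5.55 in control. Here control array 3 was the highest control, and the difference of 1.41 was 1.69 without control arrays 3 and 4 but 0.96 after repeated quantile normalization.

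Of the 36 measured genes of COPII, COPI and Golgi traffic, 2 were higher without overlap, Tex261 and Use1, where 2.05% of all genes were. Tex261, related to a yeast cargo adaptor of COPII vesicles, was at 5.49, 5.99, 6.53 and 5.27 (log2) after CRH and at 3.19, 4.29, 3.60 and 4.80 in control. No CRH array reached down to the control range, and the difference was 1.85 with all control arrays and 2.08 without arrays 3 and 4. Use1, a SNARE gene of vesicles that return to the endoplasmic reticulum, was at 5.00, 5.20, 5.64 and 5.51 after CRH and at 2.06, 2.30, 3.32 and 4.44 in control. Control arrays 3 and 4 were its highest controls, so the difference of 2.31 (adjusted p = 0.265) was 3.16 without them (adjusted p = 0.0464), where limma called Use1. In the traffic list 31 genes were higher, with a median difference of 0.45. Without control arrays 3 and 4 it had 20 higher with a median of 0.10, so the size of the Tex261 and Use1 differences was not shared by the list. Vamp7, a vesicle SNARE gene of lysosomes and exocytosis, cleared control by 0.03, with CRH array 4 at 7.30, the other CRH arrays at 4.95 to 5.35 and the control arrays at 3.05 to 4.92.

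**Figure D3:**
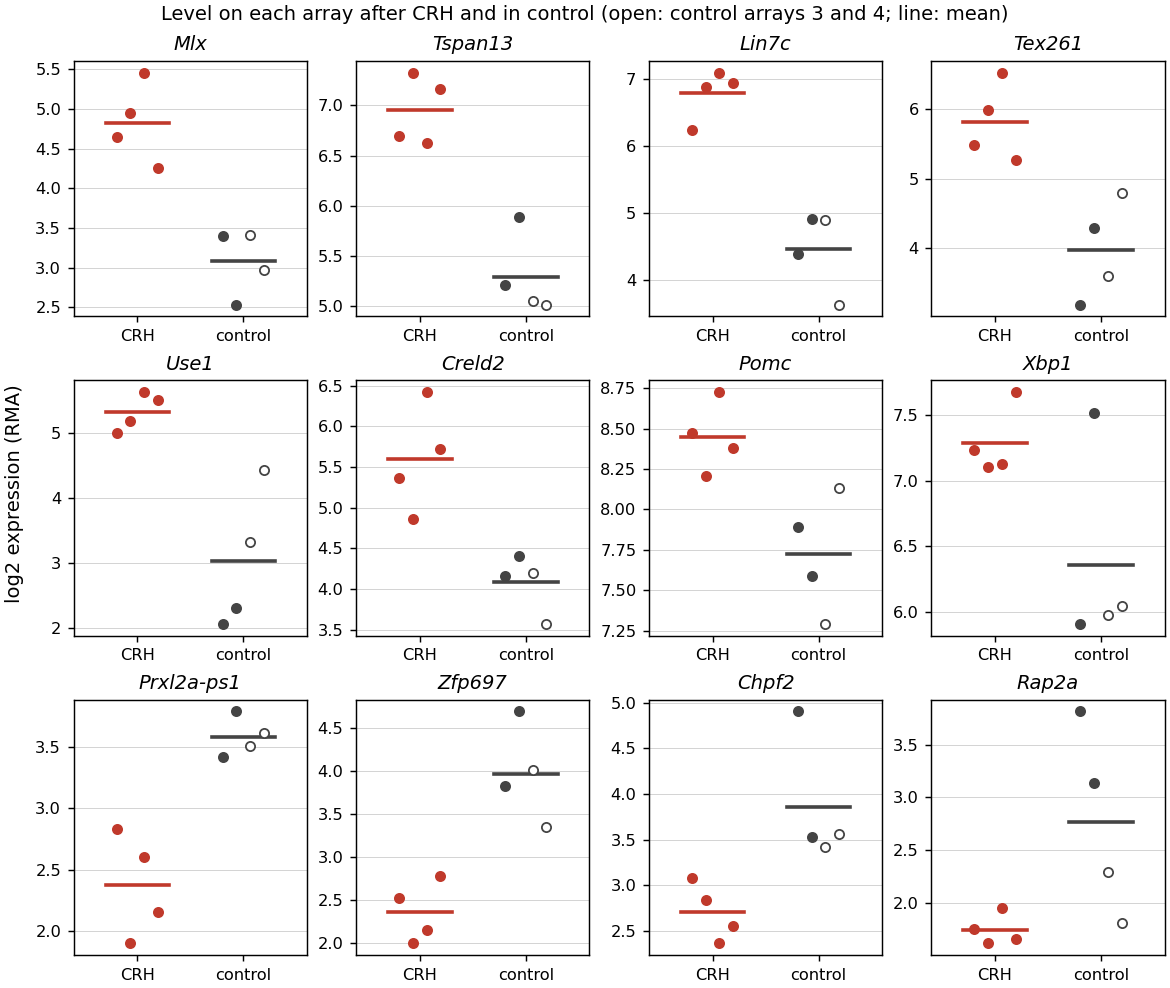
Log2 expression (RMA) of 12 genes on each CRH array (red, left) and each control array (grey, right); open circles are control arrays 3 and 4 and the line is the mean of 4 arrays. In Lin7c the groups are 1.33 apart, in Use1 the open circles are the highest controls, in Xbp1 control array 2 lies among the CRH arrays, and in Rap2a the open circles are the lowest controls.

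Further higher genes held without control arrays 3 and 4 as well. Nudt21, a subunit gene of the factor that chooses poly(A) sites, was at 5.75 to 6.68 (log2) after CRH and 3.35 to 4.74 in control, a difference of 2.16 that was 1.80 without those arrays. Zc2hc1a, a zinc finger gene, was at 6.52 to 7.07 after CRH and 3.80 to 5.78 in control, with a difference of 2.11 (2.03 without control arrays 3 and 4). Itprid2, whose product anchors inositol trisphosphate receptors, was at 2.50 to 3.27 after CRH and 1.49 to 2.36 in control, with a difference of 1.01 and of 0.88 without those arrays. Adjusted p was 0.230 for each of these 3 genes. Pex6, an ATPase gene that recycles the import receptor of peroxisomes, was at 5.70 to 6.15 after CRH, a narrow range, and at 3.48, 3.34, 5.27 and 4.21 in control. Control arrays 3 and 4 were its highest controls, and its difference of 1.91 was 2.57 without them. It was 1.43 after repeated quantile normalization and 0.95, the lowest of the alternatives, with the mean over its probe sets. The size of the Pex6 difference thus depended on the probe set.

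Trmt10b, Psmd13 and Hist1h4m had the largest differences upwards without overlap. Trmt10b, a tRNA methyltransferase gene, was at 4.75, 3.90, 5.83 and 7.81 (log2) after CRH and 2.95, 2.18, 3.01 and 3.65 in control. Its difference of 2.62 (3.00 without control arrays 3 and 4) came with a wide spread among the CRH arrays, and its adjusted p was 0.519. Psmd13, a lid subunit gene of the proteasome, was at 5.78 to 8.47 after CRH and 3.25 to 5.40 in control, a difference of 2.48 that was 2.46 without control arrays 3 and 4. CRH array 4 was the highest for both Trmt10b and Psmd13. Hist1h4m, a histone H4 gene, was at 6.88 to 7.91 after CRH and 4.00 to 5.52 in control (difference 2.46, and 2.12 without those arrays), and its gap of 1.36 was wider than that of Trmt10b (0.25). It belongs to a family of near-identical copies, so its probes may also have read other H4 genes.

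Among genes of the endoplasmic reticulum, Creld2 and Fbxo6 did not overlap control, Txndc12 and Xbp1 overlapped it through 1 array, and Hspa5 lay within its range. Of the 21 measured folding genes 1 was higher without overlap, Creld2, where 2.05% of all genes were. Fbxo6 was not on that list and was named for its large t in limma. The promoters of Creld2, Xbp1 and Hspa5 are shown because they hold the element through which stress of the endoplasmic reticulum is known to act, CCAAT and CCACG 9 bases apart, in capitals below, with Creld2 holding it in the reverse orientation. That of Scg2, a granin gene, is shown for its cAMP response element TGACGTCA, also in capitals. Each runs 5′ to 3′ from 250 bases before to 50 bases after the start of the gene, from RefSeq on GRCr8, at chr7:121789134-121789433 on the plus strand for Creld2, chr14:84604373-84604672 on the plus strand for Xbp1, chr3:38452766-38453065 on the plus strand for Hspa5 and chr9:88256817-88257116 on the minus strand for Scg2.
Creld2: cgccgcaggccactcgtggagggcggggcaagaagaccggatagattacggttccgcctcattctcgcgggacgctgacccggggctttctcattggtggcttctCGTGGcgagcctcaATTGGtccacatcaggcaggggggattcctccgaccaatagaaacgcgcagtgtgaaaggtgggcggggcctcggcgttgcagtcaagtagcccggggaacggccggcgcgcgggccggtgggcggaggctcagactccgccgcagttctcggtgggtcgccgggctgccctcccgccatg
Xbp1: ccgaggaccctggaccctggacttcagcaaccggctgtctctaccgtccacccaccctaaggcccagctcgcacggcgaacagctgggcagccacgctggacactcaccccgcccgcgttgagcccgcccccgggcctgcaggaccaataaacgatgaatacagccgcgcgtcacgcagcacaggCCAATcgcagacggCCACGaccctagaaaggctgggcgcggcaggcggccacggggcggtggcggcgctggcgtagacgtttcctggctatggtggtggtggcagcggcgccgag
Hspa5: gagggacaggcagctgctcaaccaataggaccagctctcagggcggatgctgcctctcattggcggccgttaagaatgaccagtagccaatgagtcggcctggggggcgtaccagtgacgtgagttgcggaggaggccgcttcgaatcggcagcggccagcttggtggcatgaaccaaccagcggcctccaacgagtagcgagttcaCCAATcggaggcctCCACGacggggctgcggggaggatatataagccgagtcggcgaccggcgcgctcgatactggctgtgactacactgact
Scg2: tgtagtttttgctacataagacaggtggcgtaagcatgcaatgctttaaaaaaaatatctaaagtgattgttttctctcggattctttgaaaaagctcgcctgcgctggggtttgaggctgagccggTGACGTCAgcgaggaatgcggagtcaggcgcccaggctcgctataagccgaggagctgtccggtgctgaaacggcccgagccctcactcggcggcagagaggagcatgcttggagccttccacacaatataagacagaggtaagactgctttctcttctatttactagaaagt

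Creld2, a chaperone gene induced by stress of the endoplasmic reticulum, had log2 levels of 5.36, 4.86, 6.42 and 5.73 after CRH and 4.15, 4.41, 4.20 and 3.57 in control. The groups were 0.45 apart, with CRH array 2 the lowest of its group. The difference was 1.51 (2.85-fold, adjusted p = 0.265) and 1.31 without control arrays 3 and 4. Fbxo6, a ubiquitin ligase subunit gene for misfolded glycoproteins, was at 5.28 to 6.18 after CRH and 3.10 to 4.66 in control, with a difference of 1.70 and of 1.41 without those arrays.

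Xbp1, a transcription factor gene of the unfolded protein response, was at 7.24, 7.10, 7.13 and 7.67 (log2) after CRH and at 5.91, 7.52, 5.98 and 6.04 in control. Only control array 2 overlapped the CRH arrays, and the difference was 0.92 (adjusted p = 0.629), or 0.57 without control arrays 3 and 4 and 1.31 without control array 2 alone (adjusted p = 0.0190). Txndc12, a thioredoxin-like oxidoreductase gene of the same compartment, was at 7.05, 6.79, 7.13 and 6.46 after CRH and 4.57, 6.48, 5.05 and 5.55 in control. It too overlapped only through control array 2, with a difference of 1.44 (adjusted p = 0.302), of 1.33 without control arrays 3 and 4 and of 1.80 without control array 2 alone (adjusted p = 0.0247). limma called Xbp1 and Txndc12 in the fit without control array 2, the array through which they overlapped, and in no other one run. Both were higher after CRH in every alternative, by 0.47 to 1.31 for Xbp1 and 0.98 to 1.80 for Txndc12. Hspa5, the abundant chaperone BiP, was at 7.95 to 8.32 after CRH and at 8.40, 8.44, 7.74 and 7.09 in control. Its difference of 0.22 was -0.28 without control arrays 3 and 4, so the 3 promoters with the same element belonged to genes with unlike differences.

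Of 21 measured folding genes of the endoplasmic reticulum, 17 were higher after CRH with a median of 0.36, but 8 were higher without control arrays 3 and 4 and their median was then -0.03. The 14 genes of the integrated stress response kept more of their median, at 0.40 with all control arrays (11 higher) and 0.27 without arrays 3 and 4 (9 higher). Among them Sesn2, a stress-induced regulator of nutrient signalling, was at 2.58, 5.40, 3.97 and 4.02 after CRH and 2.67, 2.16, 2.32 and 2.88 in control. Its difference was 1.48 (adjusted p = 0.719), and CRH array 1 lay among the control arrays. Ppp1r15a, which dephosphorylates the initiation factor eIF2 as part of this response, was at 0.91 with all control arrays and 0.35 without arrays 3 and 4.

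The shares of promoters with each element are given as a description, with no test. RefSeq gave promoters for 238 of the 298 higher and 51 of the 66 lower genes without overlap, for 11724 of all genes tested and for 27457 genes in all, and both strands were searched. The cAMP response element TGACGTCA was in 2.10% of the promoters of higher genes and 3.92% of those of lower genes, against 2.37% of those of all genes tested and 1.91% of all promoters. Its core TGACG, which the full element also contains, was in 29.0% of those of higher genes and 21.6% of those of lower genes, against 24.9% for all genes tested and 22.0% for all promoters. The E-box CACGTG, to which Mlx dimers can bind, was in 8.40% and 11.8%, against 7.68% and 6.65% in the same order. The NR4A site AAAGGTCA was in 0.840% and 5.88%, against 1.06% and 1.29%, where 5.88% stands for 3 promoters. The element of endoplasmic reticulum stress was in 1 promoter of a higher gene, that of Creld2, and in 0 of lower genes, against 11 of all genes tested (0.0938%) and 21 of all promoters (0.0765%). A match describes these letters only and is not a binding site.

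Scg2, a granin gene of dense-core granules, was at 8.27, 7.90, 7.80 and 8.16 (log2) after CRH and at 7.96, 7.44, 6.88 and 6.90 in control. Control arrays 3 and 4 were its lowest, and its difference of 0.73 was 0.33 without them. Cpe, the carboxypeptidase that trims processed prohormones, was at 3.46, 1.78, 5.06 and 4.92 after CRH and 2.75, 2.45, 3.19 and 2.12 in control. Its difference of 1.18 was 1.21 without control arrays 3 and 4, but CRH array 2 was the lowest of all 8 arrays, and without it the difference was 1.86. Ctsb, a lysosomal protease gene, was at 7.07 to 8.02 after CRH and 6.38 to 7.50 in control. Its difference was 0.69, and 0.63 without control arrays 3 and 4, but 0.26 after repeated quantile normalization. Across 14 granin and processing genes, 13 were higher with a median of 0.57, and 11 were higher with a median of 0.25 without control arrays 3 and 4.

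The lower genes nearest to the threshold were Prxl2a-ps1 and Zfp697, both at adjusted p = 0.158 with limma. Zfp697, a zinc finger gene, was at 2.53, 1.99, 2.15 and 2.78 (log2) after CRH and 3.82, 4.69, 4.01 and 3.35 in control. The groups were 0.56 apart, and the difference of -1.60 (3.04-fold lower) was -1.90 without control arrays 3 and 4. Prxl2a-ps1 was at 2.83, 1.90, 2.60 and 2.15 after CRH and 3.42, 3.79, 3.51 and 3.62 in control, 0.59 apart. Its difference was -1.21 with all control arrays and -1.24 without arrays 3 and 4. It is named as a pseudogene, and its probes may have read the parent gene. After repeated quantile normalization limma called Prxl2a-ps1 and Zfp697, at differences of -1.40 and -1.75.

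Other lower genes were dim or had 1 control array apart from the rest. Gpd1, the glycerol-3-phosphate dehydrogenase gene, was at 1.59 to 1.82 (log2) after CRH and 2.13 to 2.89 in control, with a difference of -0.71 and of -0.80 without control arrays 3 and 4. Chpf2, a chondroitin synthesis gene, was at 2.36 to 3.08 after CRH and at 4.90, 3.53, 3.42 and 3.56 in control, with control array 1 far above the others. Its difference was -1.14, -1.51 without control arrays 3 and 4 and -0.79 without control array 1. Tma7l1, a translation-machinery gene by its name, was at 0.94 to 1.21 after CRH and at 2.31, 2.22, 2.36 and 1.22 in control, so that control array 4 lay 0.01 above the CRH arrays. Its difference was -0.96 (adjusted p = 0.357) with all control arrays, -1.19 without arrays 3 and 4 (adjusted p = 0.0698) and -1.22 without array 4 alone, where it passed (adjusted p = 0.0274). Ddn, the gene of the podocyte and postsynaptic protein dendrin, and Hip1r, an adaptor gene of clathrin and actin, had differences of -0.67 and -0.41, and both held without control arrays 3 and 4 (-0.69 and -0.52).

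Some lower genes did not hold, and others lay further from control without control arrays 3 and 4. Hbe2, an embryonic beta-type globin gene, was at 1.10 to 1.67 (log2) after CRH and at 2.22, 2.42, 3.83 and 6.80 in control. Its difference of -2.39 was -0.89 without control arrays 3 and 4, its highest controls, and -1.40 without control array 4 alone. The 3 measured erythroid markers were all lower after CRH with a median difference of -0.11, with mean levels of 1.36 to 1.61 after CRH and 1.42 to 1.86 in control; their part in the Hbe2 difference was not tested. Cd300lf, a leukocyte receptor gene, was at 1.47 to 1.90 after CRH and at 2.03, 2.03, 3.01 and 2.92 in control. Control arrays 3 and 4 were again the highest, and its difference of -0.86 was -0.39 without them. Of 11 leukocyte markers 6 were higher and 5 lower, with mean levels of 1.89 to 2.24 after CRH and 1.97 to 2.57 in control, and their part in the Cd300lf difference was not tested.

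Rap2a, a small GTPase gene of the Ras family, was at 1.62 to 1.95 (log2) after CRH and at 3.81, 3.13, 2.29 and 1.81 in control. Control array 4 overlapped the CRH arrays, and the difference of -1.02 was -1.73 without control arrays 3 and 4, where limma called Rap2a (adjusted p = 0.0464). Eif3j, a translation initiation factor gene, was at 2.34 to 2.78 after CRH and at 3.97, 4.32, 2.28 and 2.23 in control. Uaca, a gene linked to apoptosome control, was at 2.33 to 3.27 after CRH and at 6.46, 5.16, 3.02 and 2.40 in control. For Eif3j and Uaca control arrays 1 and 2 were high and arrays 3 and 4 lay within or beside the CRH range, so that the differences of -0.63 and -1.39 became -1.57 and -2.94 without control arrays 3 and 4.

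Among the pathway lists, the median differences of the respiratory lists were the ones that moved most when control arrays 3 and 4 were left out. All 21 measured genes of respiratory complex I were higher after CRH with a median of 0.73, but 11 were higher without control arrays 3 and 4 and the median was 0.08. Of 30 genes of complexes II to V, 28 were higher with a median of 0.63, and 13 with a median of -0.04 without those arrays. In that list 2 members did not overlap, Uqcrfs1 and Sdhc, where 2.05% of all genes were higher without overlap. In the complex I list 0 members were without overlap. Uqcrfs1, the Rieske iron-sulfur protein gene of complex III, was at 3.81 to 4.19 (log2) after CRH and 3.35 to 3.79 in control, with a difference of 0.39 that was 0.33 without control arrays 3 and 4. Sdhc, a subunit gene of succinate dehydrogenase, was at 4.49, 4.32, 3.40 and 3.49 (log2) after CRH and 2.34, 3.17, 2.78 and 3.27 in control. Its difference of 1.03 was 1.17 without control arrays 3 and 4. Cox6b2, a cytochrome c oxidase subunit gene that was not on the list, had a mean of 4.88 after CRH and 2.76 in control, and its difference of 2.12 was 2.24 without those arrays.

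The proteasome list (30 genes) and the cytosolic ribosomal list (31 genes) behaved in the same way, with medians of 0.53 and 0.26 that were 0.07 and -0.10 without control arrays 3 and 4. So did the 20 genes of signal peptide targeting and the translocon (0.48 and -0.02), the 24 cell cycle genes (0.35 and -0.07) and the 22 genes of vesicle fusion and exocytosis (0.27 and -0.03). The 12 genes of cholesterol synthesis and uptake had medians of 0.51 and 0.37, with 10 of them higher against all control arrays and 7 without arrays 3 and 4. Pmvk, a kinase gene of the mevalonate pathway, was at 3.69 to 4.59 after CRH and 3.04 to 3.51 in control, a difference of 1.01 that was 0.93 without control arrays 3 and 4. Srebf2, a transcription factor gene of cholesterol synthesis, also did not overlap, and its difference of 0.76 was 0.54 without those arrays. Mvd, a decarboxylase gene of the mevalonate pathway, overlapped control, and its difference of 0.79 did not hold, at 0.40 without them. The 26 NF-kB targets and cytokines were divided, 13 higher and 13 lower, with medians of 0.01 and -0.13. In each of these lists 0 members were called over all genes.

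**Figure D4:**
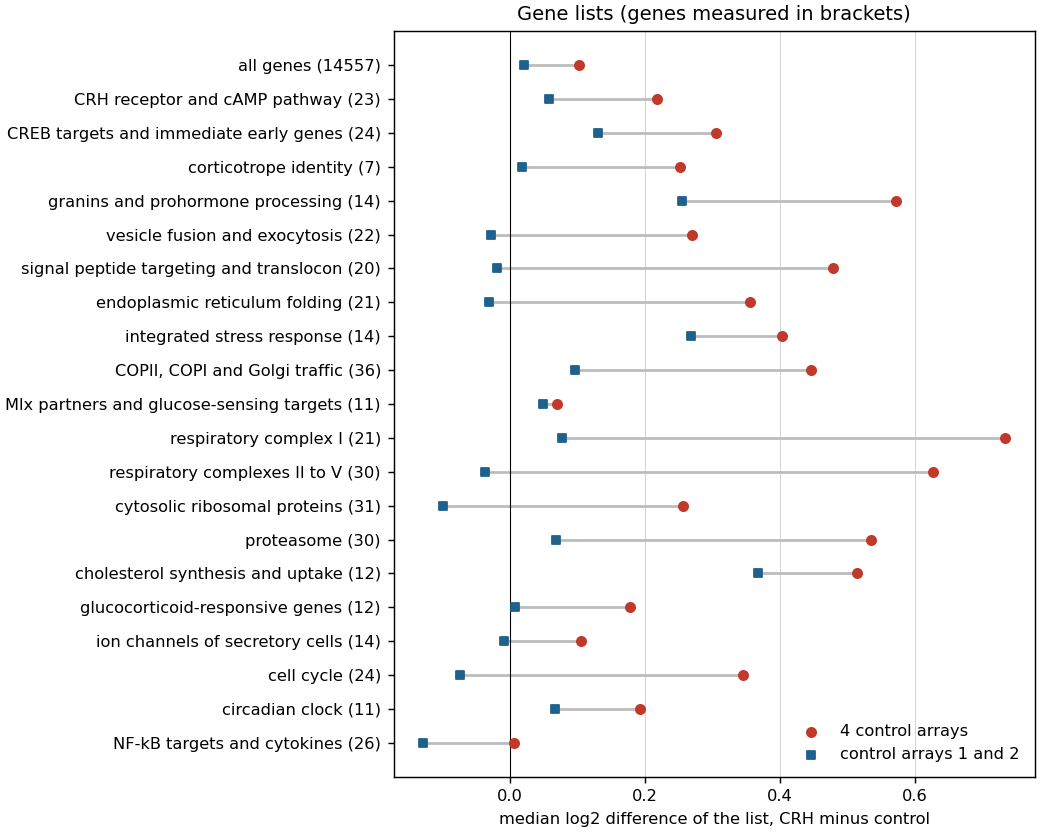
Median log2 difference of CRH minus control in all genes and in the gene lists, with the number of measured genes in brackets; red circles use all 4 control arrays and blue squares control arrays 1 and 2. The marker lists of cell types other than corticotropes are not drawn. For complex I the median is 0.73 with all control arrays and 0.08 without arrays 3 and 4, while for cholesterol synthesis and uptake it is 0.51 and 0.37.

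A marker of contractile cells was also among the separated genes. Myl9, a myosin light chain gene of smooth muscle, pericytes and myofibroblasts, was at 7.17, 7.35, 7.61 and 7.32 (log2) after CRH and at 6.49, 6.35, 5.83 and 6.57 in control. The groups were 0.60 apart, and the difference of 1.05 was 0.94 without control arrays 3 and 4 and 0.64 after repeated quantile normalization. The list of fibroblast and mural markers had 8 of 11 genes higher, with mean levels of 4.80 to 5.27 after CRH and 4.20 to 5.00 in control. Its median was 0.22, and -0.01 without control arrays 3 and 4, and its part in the Myl9 difference was not tested.

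The difference between CRH and the other ligands takes no control array into its means, although the spread behind its tests was fitted over all 16 arrays. Between CRH and the mean of IL-6 and eNampt limma called 0 of 14557 genes (0.0%), with a smallest adjusted p of 0.466. An unadjusted p under 0.05 was reached by 410 genes upwards (2.82%) and 305 downwards (2.1%), a more even balance than against control. Mrm2, a methyltransferase gene of mitochondrial ribosomal RNA, was at 3.10, 3.93, 3.76 and 3.15 (log2) after CRH, above every other array of the study, where the means were 2.28 after IL-6, 2.51 after eNampt and 2.39 in control. Its difference was 1.09 ± 0.21 (SE) from the other ligands (adjusted p = 0.474) and 1.09 from control (1.45 without control arrays 3 and 4). Spag1, an assembly factor gene of ciliary dynein, was also above all 12 other arrays, by a mean of 0.52 against the ligands and 0.57 against control. Mrm2 and Spag1, like Csrnp1, Gtf2h3 and C3 below, were named for their large t against the other ligands, so standing apart restates that choice. The share of all genes that lay beyond all 12 other arrays was not counted. Mlx did not overlap the other ligands either, with a difference of 1.23 from their mean.

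Csrnp1, a nuclear protein gene, ran the opposite way. It was at 2.30, 2.11, 2.29 and 1.93 (log2) after CRH, at a mean of 3.10 after IL-6 and 2.68 after eNampt, and at 2.57, 2.53, 2.71 and 2.57 in control. CRH arrays were the lowest of the study, and the difference was -0.74 from the other ligands and -0.44 from control (-0.39 without control arrays 3 and 4). Gtf2h3, a subunit gene of the transcription and repair factor TFIIH, had a mean of 2.10 after CRH, 3.57 after IL-6, 2.66 after eNampt and 2.37 in control. Its difference of -1.01 from the other ligands thus averaged unlike groups, since IL-6 differed from control by 1.21 and eNampt by 0.30, and its difference from control was -0.26. The complement gene C3 differed from the other ligands by -1.77 and from control by 0.15, and its own difference of eNampt from control was 3.35.

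Several of the genes that stood apart from control after CRH had like differences after the other ligands. The 3 ligand comparisons share the same control arrays, so their values are given side by side only. Lin7c differed from control by 2.33 with CRH, 2.22 with IL-6 and 2.44 with eNampt. Tex261 was at 1.85, 1.92 and 1.93 in the same order, Use1 at 2.31, 1.87 and 2.17, Pex6 at 1.91, 2.19 and 1.86, and Prxl2a-ps1 at -1.21, -1.42 and -1.24. Against the mean of the other ligands Lin7c, Tex261 and Use1 differed by 0.00, -0.08 and 0.29. Pomc was higher than that mean by 0.23 ± 0.17 (SE, adjusted p = 0.958). Creld2 differed from control by 1.51 with CRH, 0.86 with IL-6 and 1.00 with eNampt, and from the other ligands by 0.58 (adjusted p = 0.958).

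**Figure D5:**
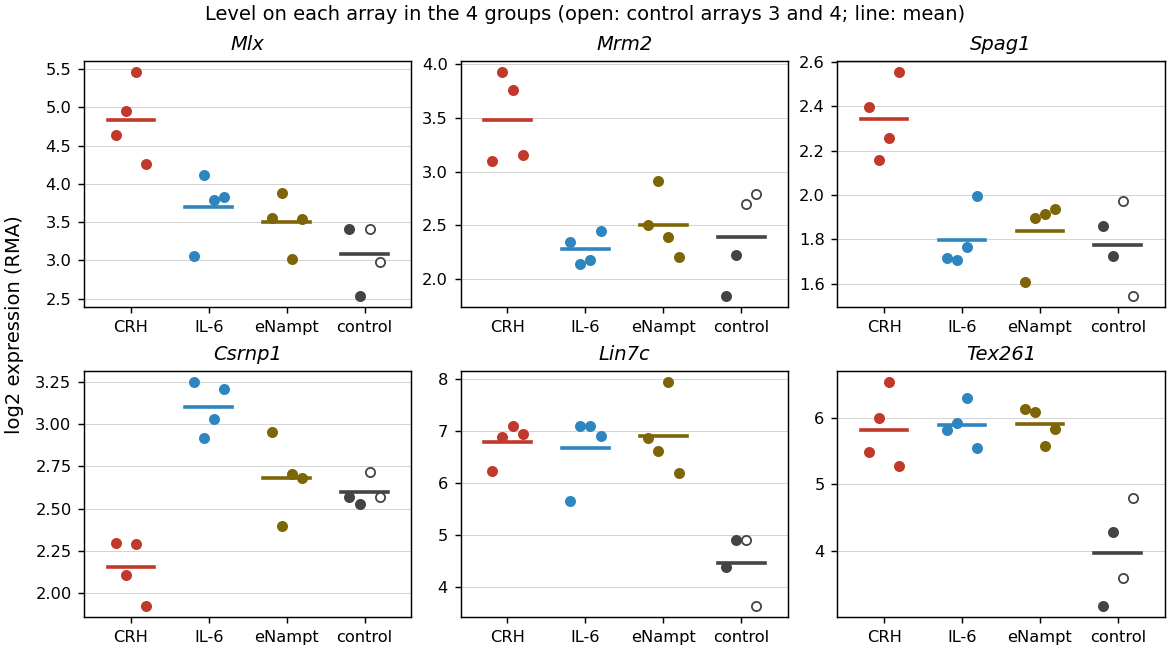
Log2 expression (RMA) of 6 genes on each array of the CRH, IL-6, eNampt and control groups, with the group mean as a line and control arrays 3 and 4 as open circles. Mlx, Mrm2 and Spag1 are higher after CRH than on all other arrays and Csrnp1 is lower, whereas Lin7c and Tex261 lie as high after IL-6 and eNampt as after CRH.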

How the data were processed

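Log2 expression per probe set was deposited as 1 table of 36685 probe sets on 16 Affymetrix arrays, made with RMA by the authors per the submitters' processing notes. Per the labels' protocols, Trizol RNA was amplified from 5 ng with a Pico kit. No RMA version, probe set level or build is named in the sources used here. Symbols came from the platform annotation and were updated through Entrez identifiers. There were 14824 probe sets with 1 symbol, 829 with several and 21032 with none in the annotation used here, and 234 genes had more than 1 probe set. Dim probe sets were kept.

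limma 3.58.1 (R 4.3.3) fitted 1 mean per group to all 16 arrays, with constant-prior empirical Bayes variances and 12 residual degrees of freedom. Tests were two-sided, p-values were adjusted by Benjamini-Hochberg across the 14557 genes, and a gene was called at adjusted p under 0.05. The median residual SD of 0.409 (log2) corresponds to an SE of 0.281 between group means of 4 arrays, and this number of arrays limits the precision. The fit was tested on simulated data. Groups were taken from the sample titles. Non-overlap counts genes with all 4 CRH arrays above, or below, all 4 control arrays.

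The members and lists were chosen with earlier results of these data known, so lists are described by counts and medians. Named were the genes without overlap with the largest moderated t (10 higher, 8 lower) or log2 difference (5 and 3), the 4 each way with the largest t without control arrays 3 and 4, the 3 each way against the other ligands, any gene called in an alternative, up to 2 per list, and a fixed set of corticotrope, cAMP, endoplasmic reticulum and granule genes. Predicted loci, small RNA genes and chemosensory receptors were left out. Alternatives were leaving out arrays, the replicate number as a block, repeated quantile normalization, genes above the median of all values, the arrays of the contrast alone, trended robust variances and the mean over probe sets. Promoters came from RefSeq on GRCr8.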

Additional observations from a re-analysis of the deposited data

Results flagged for a closer look

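Among the 97 named genes, 13 of 194 groups of 4 arrays (6.70%) held 1 array set apart from the others, judged by its gap to the nearest array as a share of the group's range (Dixon's test), where chance gives about 5%. After CRH the share was 0.869 for Cdkn1c and 0.860 for Tbx19, both highest on array 4, 0.874 for Lyz2, highest on array 1, 0.830 for Tshb, highest on array 2, and 0.847 for Ndufs8, lowest on array 3. In control it was 0.909 for Chpf2 and 0.836 for Lyz2, both highest on array 1. Control array 2 was highest for Lhb (0.904), Togaram1 (0.960) and Xbp1 (0.917) and lowest for Drd2 (0.906). Control array 3 was lowest for Rps14 (0.848) and control array 4 was lowest for Tma7l1 (0.877).

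Togaram1, a gene of ciliary microtubules, was at 2.41 to 3.43 (log2) after CRH and at 3.56, 6.51, 3.68 and 3.56 in control. Its difference of -1.42 without overlap was -0.70 without control array 2. The dim thyrotrope hormone gene Tshb was at 3.65 on CRH array 2, at 1.25 to 1.66 on the other CRH arrays and at 0.946 to 1.33 in control.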

How the results depend on the processing

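limma called genes between CRH and control under 4 of the alternatives, namely 2 without control arrays 3 and 4 (Use1 and Rap2a), 2 after repeated quantile normalization (Prxl2a-ps1 and Zfp697), 2 without control array 2 (Txndc12 and Xbp1) and 1 without control array 4 (Tma7l1), so leaving out 1 array gave 0 to 2. Against the other ligands the fit with the replicate block called 1 gene (Rabgap1), and leaving out 1 array gave 0 to 1 (Prpf18). Genes higher at an unadjusted p under 0.05 numbered 258 without control arrays 3 and 4 and 464 to 1094 without single arrays, and 897 with the replicate block. Lower ones numbered 478 without control arrays 3 and 4, 222 after repeated quantile normalization, 62 with the arrays of the contrast alone, 55 among genes brighter than the overall median and 84 to 181 without single arrays. Genes without overlap numbered 757 higher and 746 lower without control arrays 3 and 4, and 428 to 841 higher and 121 to 195 lower without single arrays, where fewer arrays make non-overlap easier. Lower ones numbered 118 after repeated quantile normalization and 30 among genes above the median. The Pomc difference was 0.70 (exact p = 0.133) without control arrays 3 and 4, 0.40 (exact p = 0.229) after repeated quantile normalization and 0.57 to 0.85 (exact p = 0.0571) without single arrays, where 3 against 4 or 2 against 4 arrays cannot reach 0.05. The cause of these shifts was not tested.

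Of the 97 named genes, 7 turned sign without control arrays 3 and 4. These were Bhlhe40 (-0.21), Gata2 (-0.054), Gh1 (-0.49), Hspa5 (-0.28), Per1 (-0.41), Scn9a (0.012) and Tbx19 (0.018). Drd2 (-0.10), Hspa5 (-0.15) and Prl (-0.066) did so after repeated quantile normalization. Without single arrays the ranges that crossed 0 were those of Bhlhe40 (-0.037 to 0.70), Drd2 (-0.35 to 0.77), Gh1 (-0.30 to 0.87), Hbb-b1 (-0.22 to 0.075), Hspa5 (-0.052 to 0.40), Lyz2 (-1.23 to 0.11), Per1 (-0.12 to 0.58) and Tbx19 (-0.089 to 0.028). Same-numbered CRH and control arrays deviated together with correlations of 0.180, 0.039, 0.296 and 0.071 across genes, against -0.184 to 0.105 for arrays of different numbers. For CRH arrays 1, 3 and 4 the same-numbered control array had the highest correlation of the 4. The labels do not tell whether equal numbers mark pairs. The main fit did not take them as pairs, and the fit with the replicate number as a block called 0 genes between CRH and control.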

Other observations

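Outside the pathways above, Nr0b1, the gene of the nuclear receptor DAX1 of pituitary and adrenal development, was at 1.85, 2.65, 3.18 and 1.40 (log2) after CRH and at 1.44, 1.53, 1.05 and 1.30 in control. CRH array 4 lay inside the control range, and the difference of 0.94 (adjusted p = 0.625 with limma) was 0.78 without control arrays 3 and 4 and 0.90 against the other ligands. Fxyd1, a regulator gene of the sodium pump and listed with the folliculostellate markers, had a difference of 3.19 that was 3.57 without those arrays. It was at 6.03, 5.31 and 7.59 on CRH arrays 1 to 3 but at 2.07 on CRH array 4, against 1.29 to 2.79 in control, and its adjusted p was 0.730. Fxyd1 was also uneven after the other ligands, at 1.83 to 5.97 after IL-6 and 2.18 to 5.30 after eNampt. Its differences from control were 2.76 and 1.55 there. The other measured folliculostellate and stem cell markers did not share the Fxyd1 difference after CRH, with S100b at 0.26, Sox2 at -0.32 and Aldh1a1 at -0.51.

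Of 11 clock genes 10 were higher after CRH with a median of 0.19, and 6 with a median of 0.07 without control arrays 3 and 4. Bhlhe40, a clock repressor gene, was at 0.39 with all control arrays and at -0.21 without those 2. Of 12 glucocorticoid-responsive genes 9 were higher with a median of 0.18, and 6 with a median of 0.01 without those arrays. Lcn2, the siderophore-binding lipocalin, differed from control by 1.04 after CRH with all control arrays and by 0.10 without arrays 3 and 4.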
